A study of Saccharomyces cerevisiae with 36 samples.

Results

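Cells of the budding yeast Saccharomyces cerevisiae that lack both MPK1 and RRP6 were compared after 10 min at 42 °C and before any heat. The comparison uses 6 of the 36 total RNA libraries of the series, picked by sample title: the double deletion at 0 min (replicates A, B and C) and at 10 min (replicates A, B and C). All strains are in BY4742, a haploid laboratory strain of mating type alpha, grown to mid-log phase in the rich medium YPD at 25 °C and heated by adding pre-warmed medium. The unheated cells carry the same pair of deletions, so the comparison shows the heat step within this strain and not the deletions themselves. Heat came with added medium, and no group given medium without heat is described, so these cannot be told apart here. Wild type (WT, no deletion), mpk1 and rrp6 cells at the same times, 3 libraries a group, serve where the response of the double deletion is set against another. The series describes the replicates as biological. Neither how the deletions were made nor whether each strain is 1 clone is stated in the sources used here. For the heating time the label has no unit, and it was read as minutes because the treatment text, which is shared by all samples and names only the 45 min harvest, is in minutes. Every count file lists 6600 open reading frames, of which 6017 had enough counts to be tested.

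Mpk1, listed in the files under the name SLT2, is the MAP kinase at the end of the cell wall integrity pathway, which heat and wall stress activate. Rrp6 is an exoribonuclease that works with the exosome in the nucleus, where it trims precursors of ribosomal and small nucleolar RNAs and destroys short-lived transcripts. In yeast, a shift to high temperature engages the heat shock factor Hsf1, which drives chaperone genes, and the related activators Msn2 and Msn4, which drive the general stress genes, while genes for making ribosomes are turned down as growth signalling through protein kinase A and TORC1 drops.

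The 6 libraries held between 4944624 and 11792808 counts in open reading frames, within a range of 2235918 to 12072112 over all 36. SLT2 had 0 counts in all 6 and RRP6 had 1 count in total, against 111 to 700 and 40 to 849 counts in the WT libraries. The alpha-specific genes STE3, MF(ALPHA)1, MF(ALPHA)2 and SAG1 had 287 to 20228 counts per library and the 6 a-specific genes 2 to 263. Of 4 marker genes named for the BY4742 background, LEU2, LYS2 and URA3 had at most 1 count, and HIS3 had 275 to 959. Pearson's r of log2 CPM across genes was 0.9905 to 0.9936 between the unheated replicates and 0.9578 to 0.9809 between the heated ones, with replicates B and C the least alike. Replicate C at 10 min held the lowest share of ribosomal protein counts, and results that rest on it are given with and without it. Levels are CPM, counts scaled to a common library total with TMM factors, which fix neither gene length nor RNA per cell. A lower CPM can be fewer cells with the transcript, less of it per cell or a smaller share of a changed total, and these cannot be told apart here.

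Heat changed most of the transcriptome within 10 min. With p-values adjusted over all 6017 genes by the Benjamini-Hochberg method and a threshold of 0.05, the quasi-likelihood test of edgeR called 2246 genes higher (37.3%) and 2247 lower (37.3%), so that 74.7% were called in 1 direction or the other. The rises reached further than the falls: 215 genes rose at least 16-fold (3.57%) and 0 fell that far, while 679 rose (11.3%) and 326 fell (5.42%) at least 4-fold. At an unadjusted p under 0.05 the same test gave 4581 genes in either direction. The heated libraries lay wholly above the unheated ones for 2216 genes (36.8%) and wholly below for 2328 (38.7%). The balance depends on the scaling: with total counts in place of TMM, the median gene shifted by -0.50 on the log2 scale and the calls were 1420 higher and 3180 lower.

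Counts also piled up in fewer genes. The 10 genes with the most counts took 9.29% to 11.2% of a library at 0 min and 20.9% to 25.4% at 10 min. The genes for the cytosolic Hsp70 chaperones and their cofactors went from 0.588%, 0.663% and 0.843% of all gene counts in replicates A, B and C to 8.78%, 10.6% and 10.5%. Large-subunit ribosomal proteins went the other way, from 14.8%, 14.2% and 14.1% to 2.86%, 3.24% and 1.06%. In each class the 2 sets of libraries are far apart, and replicate C at 10 min is the lowest of the heated ones for ribosomal proteins.

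**Figure D1:**
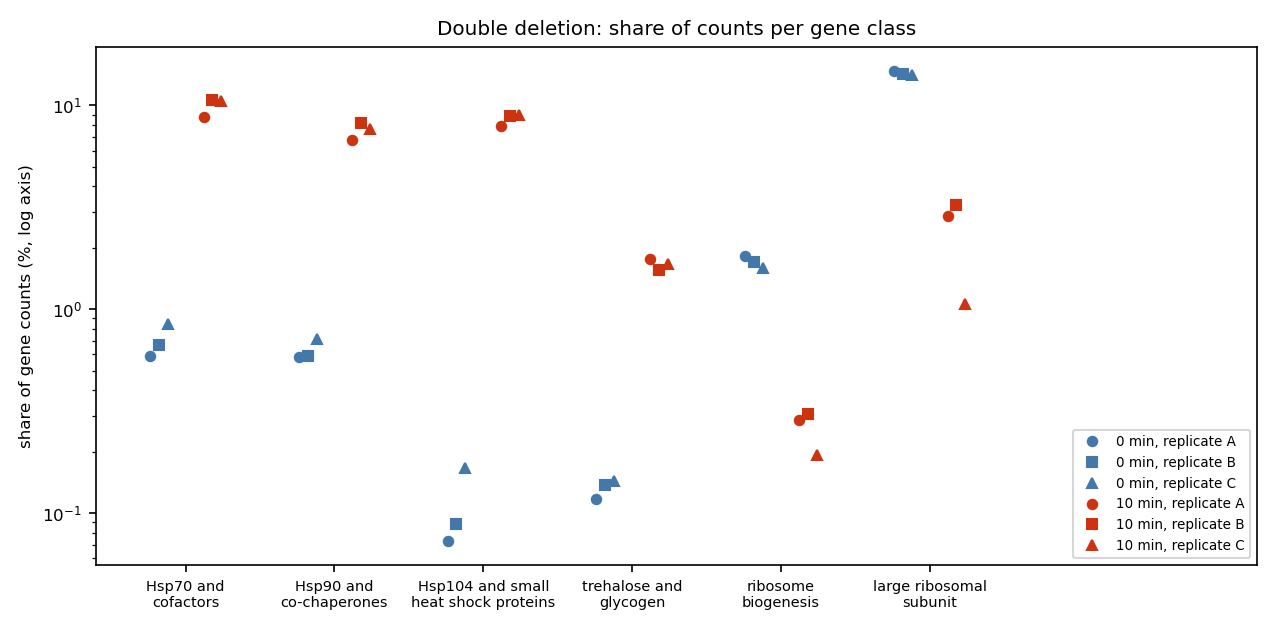
Share of all gene counts (percent, log axis) taken by 6 gene classes in each of the 3 unheated and 3 heated libraries of the double deletion, 1 point per library. Chaperone classes sit higher at 10 min in every library, ribosome classes sit lower, and replicate C at 10 min holds 1.06% in large-subunit ribosomal proteins against 2.86% and 3.24% in replicates A and B.

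Among annotated genes, the 10 largest rises were those of YNL194C, HSP26, HXT5, SSA4, HSP12, HSP30, TMA10, GAC1, SPI1 and YOL085C, with log2 fold changes from 7.86 to 11.01. HSP26 encodes a small heat shock protein that holds unfolding proteins, and it measured 11.6, 16.7 and 14.9 CPM at 0 min and 17784, 17303 and 29523 CPM at 10 min, a log2 fold change of 10.54 ± 0.39 (SE; adjusted p = 1.66e-19). SSA4, the stress-inducible cytosolic Hsp70, had 35.7, 44.3 and 42.0 CPM at 0 min and 29456, 40006 and 44087 CPM at 10 min. Every heated value of both genes is far above every unheated one, and the spread between replicates is small beside the change. HSP12, a small membrane-associated stress protein, had 20.1, 8.81 and 11.3 CPM at 0 min and 7405, 3525 and 10765 CPM at 10 min, and HSP30, a plasma membrane stress protein, had 14.6, 23.5 and 99.2 CPM at 0 min and 17558, 17094 and 24500.0 CPM at 10 min. Both vary more than SSA4: replicate B is the lowest heated library for HSP12, and replicate C stands above A and B for HSP30 already at 0 min. HXT5, a hexose transporter made when growth slows, had 0.725, 0.722 and 0.498 CPM at 0 min and 698, 370.0 and 1228 CPM at 10 min. YNL194C, a membrane protein of the cell cortex, had only 0, 1 and 3 counts in the 3 unheated libraries and 389, 239 and 351 CPM when heated. GAC1, a targeting subunit of the phosphatase that activates glycogen synthase, had 0, 2 and 7 counts unheated, and YOL085C had 1, 0 and 0. With so few counts the fitted folds of these 3 genes depend on the prior count of the model, while the heated libraries are plainly above the unheated ones.

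The 10 largest falls were smaller and mostly hit genes for making ribosomes: AAH1, DSE2, RKI1, DBP3, RPS9B, RPA43, IMP3, NOP13, RPS2 and NIP7. AAH1, adenine deaminase of purine salvage, went from 146, 132 and 129 CPM to 10.2, 8.66 and 7.19 CPM, a log2 fold change of -3.98 ± 0.27 (adjusted p = 8.06e-14). DSE2, a daughter-cell enzyme that helps mother and daughter part, went from 262, 297 and 308 CPM to 22.7, 28.2 and 7.19 CPM. RPS9B, a small-subunit ribosomal protein, went from 2625, 2463 and 2633 CPM to 315, 256 and 29.9 CPM. In RPS9B heated replicate C lies far below A and B, and its log2 fold change of -3.69 ± 0.61 has the widest standard error of the 10. DBP3 is an RNA helicase of large-subunit assembly, RPA43 a subunit of RNA polymerase I, and IMP3, NOP13 and NIP7 take part in ribosome assembly. Their log2 fold changes were -3.69 ± 0.29, -3.62 ± 0.25, -3.55 ± 0.32, -3.52 ± 0.34 and -3.50 ± 0.33, with all heated libraries below all unheated ones.

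**Figure D2:**
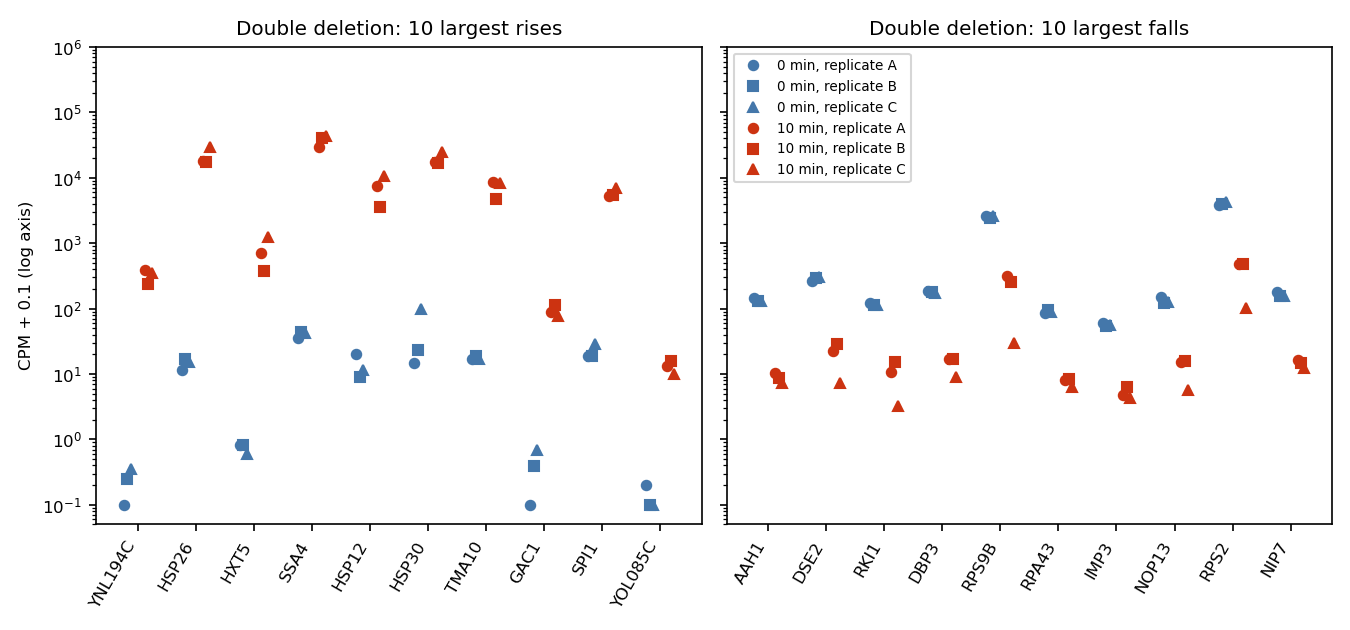
CPM + 0.1 (log axis) of the 10 annotated genes with the largest rise and the 10 with the largest fall, 1 point for each of the 3 unheated and 3 heated libraries. No heated point overlaps an unheated one, and the heated points of RPS9B spread widest among the falls, with replicate C lowest. CPM are not divided by gene length, so genes are not to be ranked against each other by height.

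Motifs were searched in the 300 bases upstream of each annotated start, and the 200 bases of this window that lie farthest from the start are printed for SSA4, HSP26, HSP12 and DBP3, because these genes had the largest change in the Hsp70, small heat shock protein, general stress and ribosome biogenesis lists. Sequences are from the RefSeq R64 assembly, read 5′ to 3′ toward the gene, and capitals mark every match to 5 motifs on either strand: GAANNTTC and TTCNNGAA, the 2 arrangements of the heat shock element core, AGGGG, the stress response element, GATGAG, the PAC element, and AAAATTTT, the ribosomal RNA processing element. TTCNNGAA was added after the sequences were seen. The printed stretch of SSA4 is chrV:364289-364488 (plus strand), that of HSP26 chrII:381730-381929 (plus), that of HSP12 chrVI:106956-107155 (plus) and that of DBP3 chrVII:361960-362159 (minus).
SSA4: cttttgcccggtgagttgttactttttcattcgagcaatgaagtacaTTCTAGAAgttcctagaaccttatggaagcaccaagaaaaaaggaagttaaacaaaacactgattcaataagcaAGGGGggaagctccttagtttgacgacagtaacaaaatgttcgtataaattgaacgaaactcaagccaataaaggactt
HSP26: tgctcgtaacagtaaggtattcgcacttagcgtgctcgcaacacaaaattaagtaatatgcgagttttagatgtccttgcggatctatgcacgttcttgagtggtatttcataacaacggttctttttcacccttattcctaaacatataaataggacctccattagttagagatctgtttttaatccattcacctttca
HSP12: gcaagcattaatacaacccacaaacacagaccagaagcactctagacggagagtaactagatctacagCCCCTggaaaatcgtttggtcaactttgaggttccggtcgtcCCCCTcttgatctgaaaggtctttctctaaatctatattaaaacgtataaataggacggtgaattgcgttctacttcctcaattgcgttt
DBP3: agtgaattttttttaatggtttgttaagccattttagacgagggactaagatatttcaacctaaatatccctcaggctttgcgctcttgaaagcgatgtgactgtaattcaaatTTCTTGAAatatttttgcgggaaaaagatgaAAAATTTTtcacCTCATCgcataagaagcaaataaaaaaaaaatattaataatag
SSA4 holds TTCNNGAA 253 bases and AGGGG 179 bases before its start, HSP12 holds AGGGG at 232 and 190 bases, and in DBP3 the AAAATTTT and GATGAG matches begin 155 and 143 bases before the start, with TTCNNGAA at 186 and, past the printed stretch, AGGGG at 11. No 2 matches overlap in these windows. HSP26 holds none of these letters in its window.

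Across the 5715 promoters of this length, GATGAG stood in 18.6%, AAAATTTT in 9.75%, both together in 4.67%, AGGGG in 22.8%, and GAANNTTC or TTCNNGAA in 22.8%. The 70 ribosome biogenesis genes, 69 of which fell, held GATGAG in 90.0%, AAAATTTT in 78.6% and both in 71.4% of their promoters. Among the 315 annotated genes that fell at least 4-fold the shares were 48.6%, 38.1% and 30.2%, while AGGGG stood in 10.2%. Among the 190 that rose at least 16-fold, AGGGG stood in 42.1%, either heat shock element core in 30.5%, and GATGAG with AAAATTTT in 0.526%. The core was not particular to rises. It stood in 25.7% of the promoters of genes that fell at least 4-fold. Among the 81 large-subunit ribosomal protein promoters its share was 35.8%. AGGGG was in 69.2% of the 26 general stress promoters, and an element core in 75.0% of the 12 Hsp90 and 58.3% of the 12 Hsp70 promoters. These shares include TTCNNGAA, the arrangement added later. GAANNTTC alone stood in 25.0% of the Hsp90, 33.3% of the Hsp70 and 11.7% of all promoters. It was in 17.4% of those that rose at least 16-fold and 15.2% of those that fell at least 4-fold. A match is a string of letters, not a bound site.

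Most chaperone genes of the cytosol rose. All 6 members of the disaggregase and small heat shock protein list rose, with a median log2 fold change of 6.60 against -0.01 over all genes tested. HSP104, the disaggregase that pulls proteins out of aggregates, had 297, 322 and 632 CPM at 0 min and 27715, 35595 and 35437 CPM at 10 min. HSP42 and BTN2, which gather misfolded proteins into deposits, rose by 6.90 ± 0.48 and 7.17 ± 0.48 on the log2 scale. For HSP104, HSP42 and BTN2, replicate C was already the highest of the unheated libraries, and all heated values are still far above it. Of 12 genes in the Hsp70 list 10 rose and 1 fell, with a median of 4.56: SSA4, SSE2, a nucleotide exchange factor (6.49 ± 0.23), and APJ1, a J-domain partner (5.31 ± 0.35), led, and the J-domain gene XDJ1 was not called (-0.25 ± 0.16, adjusted p = 0.158). Of 12 Hsp90 genes 8 rose and 2 fell (6 and 4 with total counts), with a median of 1.72. HSP82, the inducible Hsp90, had 294, 358 and 784 CPM at 0 min and 27647, 40864 and 35456 CPM at 10 min, and its co-chaperones STI1 and CPR6 rose by 5.09 ± 0.22 and 4.93 ± 0.21. The co-chaperone genes SBA1 and CPR7 were not called (0.08 ± 0.13 and -0.24 ± 0.13). Genes for SSA1 and SSA2 are nearly alike in sequence, so reads from one may have been dropped or split.

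Folding helpers of the organelles split by compartment. In the endoplasmic reticulum list 14 of 15 genes rose and 0 fell (11 and 1 with total counts), with a median of 1.29. KAR2, the Hsp70 of that compartment, had 387, 432 and 557 CPM at 0 min and 13997, 17665 and 14762 CPM at 10 min, and ERO1, which feeds oxidising power to protein disulfide isomerase, rose by 4.80 ± 0.20. FPR2, a proline isomerase, was not called (-0.21 ± 0.14). Of 10 mitochondrial chaperone genes 5 rose and 4 fell: HSP78, the mitochondrial disaggregase, MDJ1, a J-domain protein, and HSP60 rose by 6.71 ± 0.31, 4.16 ± 0.25 and 3.50 ± 0.23. Chaperones that sit on the ribosome fell like the ribosomal protein genes. Of 7 such genes 6 fell, with a median of -1.89, led by SSB1 from 1923, 1888 and 2214 CPM to 311, 297 and 148 CPM, and BTT1, a subunit of the nascent chain complex, was not called (-0.01 ± 0.20).

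**Figure D3:**
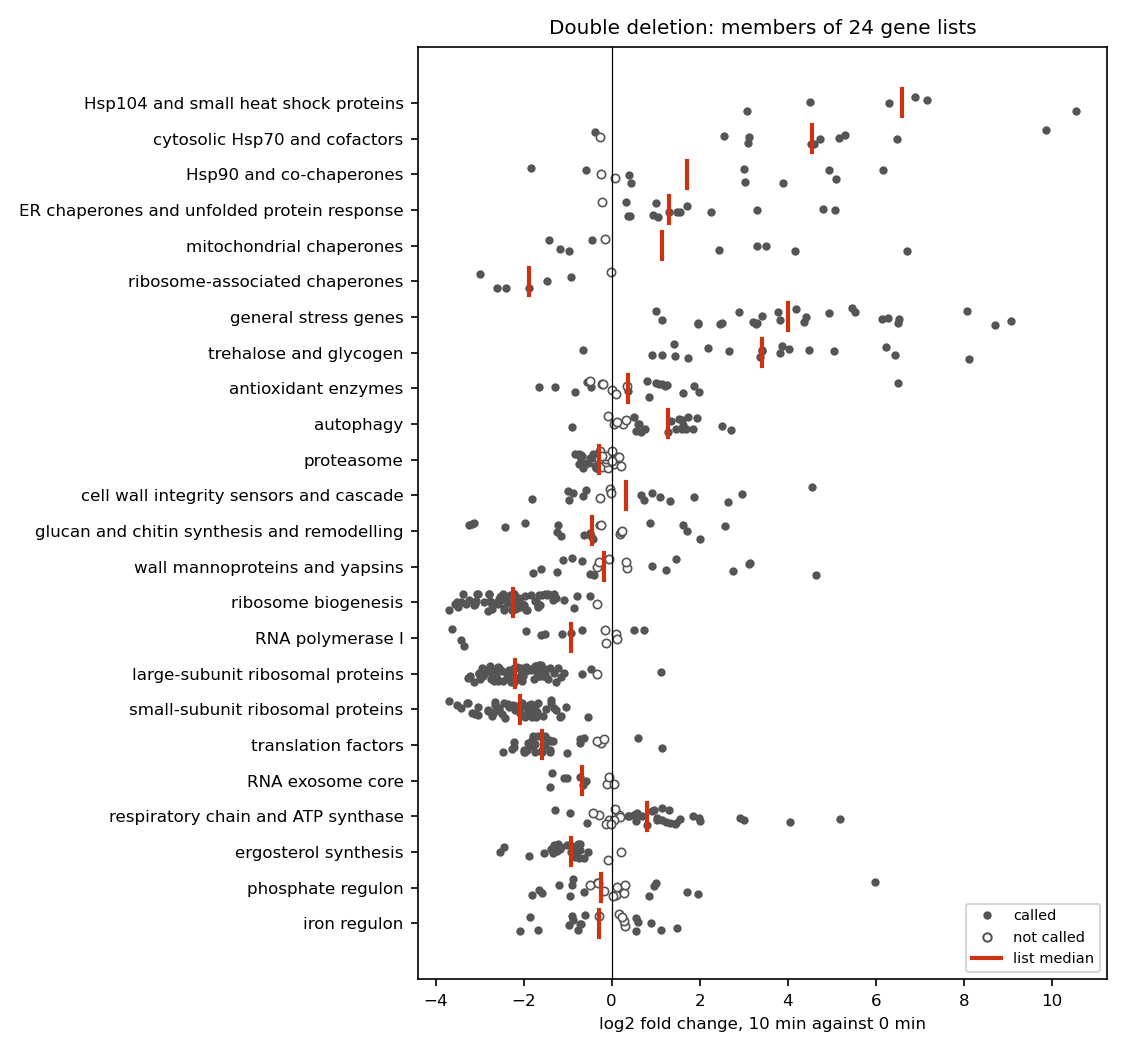
Log2 fold change (10 min against 0 min in the double deletion) of every tested member of 24 gene lists, 1 point per gene, with filled points called at an adjusted p under 0.05, open points not called, and a bar at each list's median. General stress and most chaperone lists have medians to the right, and ribosome lists and the ribosome-associated chaperones lie to the left. Members of the mitochondrial chaperone, cell wall and iron lists stand on both sides of 0.

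General stress genes rose without exception in the list. All 26 rose, with a median of 4.01, and HSP12 was the highest. TMA10, a ribosome-associated protein of unknown role, had 16.7, 18.6 and 16.8 CPM at 0 min and 8602, 4785 and 8430.1 CPM at 10 min, and SPI1, a cell wall protein of stressed cells, rose by 8.07 ± 0.33. The storage carbohydrates trehalose and glycogen followed, with 18 of 19 genes higher and 1 lower. TSL1, a regulatory subunit of trehalose synthase, had 58.2, 87.5 and 89.7 CPM at 0 min and 5559, 7284 and 4949.5 CPM at 10 min, and GPH1, glycogen phosphorylase, rose by 6.45 ± 0.36. In the Ras and protein kinase A list 11 of 14 rose and 2 fell (8 and 3 with total counts). IRA2, which switches Ras off, rose by 4.95 ± 0.31, and PDE2, which breaks down cyclic AMP, by 2.22 ± 0.14.

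Antioxidant genes were mixed, with 12 of 23 higher and 5 lower. CTT1, cytosolic catalase, rose from 12.7, 13.9 and 12.3 CPM to 1184, 567 and 1767 CPM, and AHP1, a peroxiredoxin, rose by 1.98 ± 0.18, whereas TSA1 and SOD1 were not called (-0.49 ± 0.24 and -0.23 ± 0.25). The list's median of 0.38 turned to -0.12 with total counts as the scaling, where 8 were higher and 9 lower. Among 15 stress transcription factor genes 8 rose and 3 fell, with a median of 0.52, but with total counts 5 were higher and 5 lower, with a median of 0.02. RPN4, activator of the proteasome genes, had 156, 183 and 269 CPM at 0 min and 1360.3, 2415 and 1108 CPM at 10 min, and GIS1 and SKO1 rose by 2.87 ± 0.18 and 1.91 ± 0.13. Of 35 proteasome genes 0 rose and 18 fell, led by the core subunits PRE1 and PRE3 (-0.84 ± 0.14 and -0.75 ± 0.13), and RPN2 was not called (0.11 ± 0.13). With total counts 34 of the 35 were lower. UBI4, the stress polyubiquitin gene, had 230.1, 223 and 272 CPM at 0 min and 4716, 4848 and 5536 CPM at 10 min, and UBC4, a ubiquitin-conjugating enzyme, rose by 2.26 ± 0.14. In that ubiquitin list 10 of 20 rose and 7 fell (4 without either replicate C), and its median of 0.13 became -0.37 with total counts. Of 25 autophagy genes 19 rose and 1 fell (13 and 3 with total counts), with ATG39, a receptor for the nuclear envelope, and ATG8, the membrane tag, at 2.71 ± 0.24 and 2.52 ± 0.22.

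Genes for making ribosomes fell almost without exception in the lists tested. Of 70 ribosome biogenesis genes 69 fell and 0 rose, with a median of -2.25, and UTP20 was not called (-0.33 ± 0.22, adjusted p = 0.177). NOP56, a core protein of the small nucleolar particles that guide methylation, went from 694, 607 and 622 CPM to 117, 117 and 50.5 CPM. Of 15 genes for RNA polymerase I and its factors 9 fell and 2 rose (11 and 0 with total counts): RPA12 and RPA49 fell by log2 fold changes of -3.42 ± 0.28 and -3.36 ± 0.35, and the initiation factor gene RRN3 was not called (-0.15 ± 0.14). Of 81 large-subunit ribosomal protein genes 79 fell and 1 rose (median -2.19), and of 56 small-subunit genes all fell (median -2.08). RPL10 went from 4018, 3848 and 4472 CPM to 893, 1331 and 364 CPM, and RPS31, a ribosomal protein made as a ubiquitin fusion, from 5600.0, 4914 and 5879.5 CPM to 1653, 2604 and 728 CPM. Both genes are lowest in replicate C, and without that library 77 and 55 of the 2 ribosomal protein lists fell. Paired ribosomal protein genes are close copies, and reads that align to both are not in these counts. RPL41A was not called (-0.33 ± 0.19).

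Of 35 translation factor genes 30 fell and 2 rose. YEF3, the fungal elongation factor, went from 3706, 3567 and 4566 CPM to 838, 859 and 767 CPM, and TIF3 and SUP45, an initiation and a termination factor, fell by log2 fold changes of -2.47 ± 0.24 and -2.23 ± 0.18. EFB1, an exchange factor for elongation, went against the list, with 1926, 1973 and 2077 CPM at 0 min and 3710.1, 5514 and 4008 CPM at 10 min. Among 10 regulators of ribosomal genes, 6 rose and 2 fell. The paralogous repressors of ribosome biogenesis, which bind the PAC element, parted: TOD6 went from 70.5, 62.2 and 53.9 CPM to 13.9, 18.6 and 8.94 CPM and DOT6 from 74.2, 89.5 and 87.2 CPM to 188, 177 and 189.9 CPM. STB3, a repressor that binds the ribosomal RNA processing element, rose by 1.13 ± 0.12. RAP1 and FHL1, which sit on ribosomal protein promoters, were not called (0.19 ± 0.11 and -0.15 ± 0.13). With total counts as the scaling, 2 of these 10 were higher and 4 lower.

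Genes of the machinery that Rrp6 belongs to fell mildly. Of 10 genes for the exosome core 7 fell and 0 rose, with a median of -0.68. MTR3 and RRP40, a ring and a cap subunit, went from 70.6, 70.5 and 75.0 CPM to 24.7, 26.2 and 30.2 CPM and from 87.2, 79.7 and 80.4 CPM to 35.0, 31.5 and 30.2 CPM. The other 3 were not called, among them the ring subunits RRP45 and RRP43 (0.06 ± 0.13 and -0.07 ± 0.10), but with total counts all 10 were lower. Of 14 nuclear exosome cofactors 11 fell and 2 rose: MTR4, the helicase that feeds RNA to the exosome, and RNT1, the ribonuclease that cleaves stem loops, fell by log2 fold changes of -1.68 ± 0.28 and -2.28 ± 0.28, while REX3, another exoribonuclease, rose by 2.08 ± 0.20. NAB3, of the complex that ends short transcripts, was not called (-0.34 ± 0.17). In cytoplasmic mRNA decay 13 of 23 fell and 7 rose (15 and 4 with total counts), with EDC2, an activator of decapping, from 18.4, 26.6 and 38.0 CPM to 496, 829.6 and 440.3 CPM and LSM1, of the ring that binds shortened mRNAs, at -1.02 ± 0.10. Among 18 genes for nuclear mRNA binding and export 11 fell and 3 rose. HRP1, a cleavage factor, fell from 349, 366 and 435 CPM to 111, 116 and 55.7 CPM.

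The pathway that lacks its kinase showed no single direction. Of 18 genes for cell wall integrity sensors and cascade 9 rose and 6 fell, and the median of 0.32 turned to -0.18 with total counts. MTL1, a wall sensor, had 6.01, 6.79 and 6.97 CPM at 0 min and 125, 103 and 238 CPM at 10 min, and ROM1, an exchange factor for Rho1, rose by 2.95 ± 0.22. SDP1, a phosphatase that acts on Mpk1, rose by 2.63 ± 0.20, and RHO1 itself by 0.67 ± 0.14. PKC1, which heads the kinase cascade, was not called (-0.04 ± 0.11). Of 22 glucan and chitin genes 13 fell and 5 rose. The chitinase CTS1 went from 817, 850.4 and 933 CPM to 122, 101 and 51.7 CPM, and SCW10 and EXG1, wall glucanases, fell by log2 fold changes of -3.18 ± 0.30 and -3.12 ± 0.24. CRH1, an enzyme that links glucan to chitin, was not called (-0.25 ± 0.17). Of 20 genes for wall mannoproteins and yapsins 7 rose and 8 fell, near the 37.3% of all genes called in each direction. CWP1 had 7.98, 16.9 and 11.9 CPM at 0 min and 215, 178 and 505 CPM at 10 min, and TIP1 and the protease YPS1 rose by 3.13 ± 0.20 and 3.15 ± 0.32.

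Respiratory genes mostly rose, while genes of glycolysis split. Of 39 genes for the respiratory chain and ATP synthase 27 rose and 3 fell, led by CYC7, the second cytochrome c, from 14.0, 11.1 and 12.7 CPM to 508, 229 and 644 CPM, and with ATP1 not called (-0.07 ± 0.12). With total counts 17 were higher and 8 lower. Of 28 genes for glycolysis and fermentation 14 rose and 9 fell, and the list's median of 0.46 became -0.04 with total counts. The hexokinases HXK1 and GLK1 rose by 5.54 ± 0.42 and 3.42 ± 0.27, while ENO2 and ADH1 were not called (0.28 ± 0.19 and 0.16 ± 0.28). Of 21 hexose transport genes 16 rose and 4 fell (9 and 4 with total counts), and HXT6 and HXT7, which are near-identical copies, rose by 4.98 ± 0.51 and 6.63 ± 0.69. HXT2 had 414, 320.1 and 284 CPM at 0 min and 3463, 1702 and 3239.8 CPM at 10 min, with replicate B lowest after heat. Replicate B was also the lowest heated library for HSP12, CTT1, HXT5, CYC7, HXK1 and GPH1.

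Ergosterol and amino acid genes mostly fell. Of 25 ergosterol genes 23 fell and 0 rose, with ERG3 from 534, 507 and 528 CPM to 98.4, 112 and 62.8 CPM, and ERG28 was not called (0.21 ± 0.12). Of 42 amino acid synthesis genes 34 fell and 2 rose (40 and 0 with total counts), led by BAT1 and ILV5 of the branched-chain pathway (-2.82 ± 0.28 and -2.72 ± 0.20). In arginine metabolism 6 of 16 were higher and 7 lower, near the 37.3% of all genes called in each direction. With total counts 5 were higher and 10 lower. ARG3 rose by 2.80 ± 0.21, and ARG4 and ARG7 fell by log2 fold changes of -1.39 ± 0.12 and -1.87 ± 0.15. In sulfur assimilation 11 of 25 rose and 5 fell, and the median of 0.32 became -0.18 with total counts, where 5 were higher and 11 lower. SAM1, S-adenosylmethionine synthetase, went from 329, 364 and 355 CPM to 41.0, 43.5 and 24.4 CPM, while MET28, a cofactor of the pathway's activator, rose by 2.56 ± 0.35. Of 21 iron regulon genes 6 rose and 10 fell (2 and 11 with total counts), with the ferroxidase gene FET3 from 673, 838 and 793 CPM to 222, 199.5 and 215 CPM and SIT1, a carrier of iron-loaded siderophores, at -1.68 ± 0.17. Of 24 phosphate genes 6 rose and 10 fell, led by PHM8, a nucleotide phosphatase, with 22.4, 14.1 and 33.1 CPM at 0 min and 1330.5, 1886 and 1202 CPM at 10 min.

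Genes of dividing and mating cells mostly fell. Of 11 histone genes 7 fell and 1 rose (10 and 0 with total counts). The H2A and H2B genes HTA2, HTB1 and HTB2 fell by log2 fold changes of -1.97 ± 0.18, -1.84 ± 0.14 and -1.69 ± 0.17, whereas HTA1 and HHT2 were not called (-0.07 ± 0.17 and -0.11 ± 0.14). Histone gene pairs are close copies, with the same limit on counting. Of 22 genes for cyclins and the start of the cycle 13 fell and 7 rose (14 and 2 with total counts): CLN2, a cyclin of late G1, went from 66.7, 64.7 and 57.7 CPM to 16.8, 17.5 and 6.27 CPM, and RNR3, a subunit of ribonucleotide reductase made on DNA damage, rose by 3.09 ± 0.23. The pheromone and alpha-cell list had 13 of 18 lower and 3 higher. STE3, the receptor for a-factor, went from 494, 360.4 and 367 CPM to 87.7, 65.7 and 28.4 CPM, and SAG1, the alpha-agglutinin, from 1466, 829 and 924 CPM to 263, 184 and 63.9 CPM, with replicate C lowest in both. Meiotic genes, which a haploid in rich medium does not use, rose from low levels. Of 22 early meiotic genes 19 could be tested, 16 rose and 0 fell (11 and 1 with total counts). Of 21 late sporulation genes 15 rose and 0 fell (9 and 2 with total counts). REC107 had 10.8, 14.3 and 15.5 CPM at 0 min and 39.7, 44.4 and 45.5 CPM at 10 min and SPS100, a spore wall protein, 1.24, 0.722 and 0.664 CPM at 0 min and 48.4, 75.2 and 43.2 CPM at 10 min, whereas NDT80, the activator of mid-sporulation genes, was not called (-0.32 ± 0.25).

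Heat responses of the 4 strains were alike in outline. Across the 6017 genes the log2 fold changes of the double deletion had Pearson's r of 0.9004 with WT, 0.9328 with mpk1 and 0.9505 with rrp6, as a description over genes, which are not independent replicates. These responses share no library. The difference itself, tested as an interaction in the same fit, was called for 1213 genes against WT (20.2%; 550 or 9.14% higher and 663 or 11% lower in the double deletion), 454 against mpk1 (7.55%; 259 or 4.30% higher and 195 or 3.24% lower) and 251 against rrp6 (4.17%; 132 or 2.19% higher and 119 or 1.98% lower). Here "higher" means a larger rise or a smaller fall than in the other strain. With total counts the splits were 260 higher and 838 lower against WT and 100 and 327 against mpk1, and with DESeq2's size factors 677 and 537 against WT. The counts against mpk1 and rrp6 move with single libraries. Without heated replicate C of the double deletion the count against mpk1 was 841, without its heated replicate B 264, without heated replicate B of mpk1 271 and without unheated replicate C of mpk1 298. The count against rrp6 was 125 to 154 when replicate B or C of unheated rrp6, heated rrp6 or the unheated double deletion was left out.

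**Figure D4:**
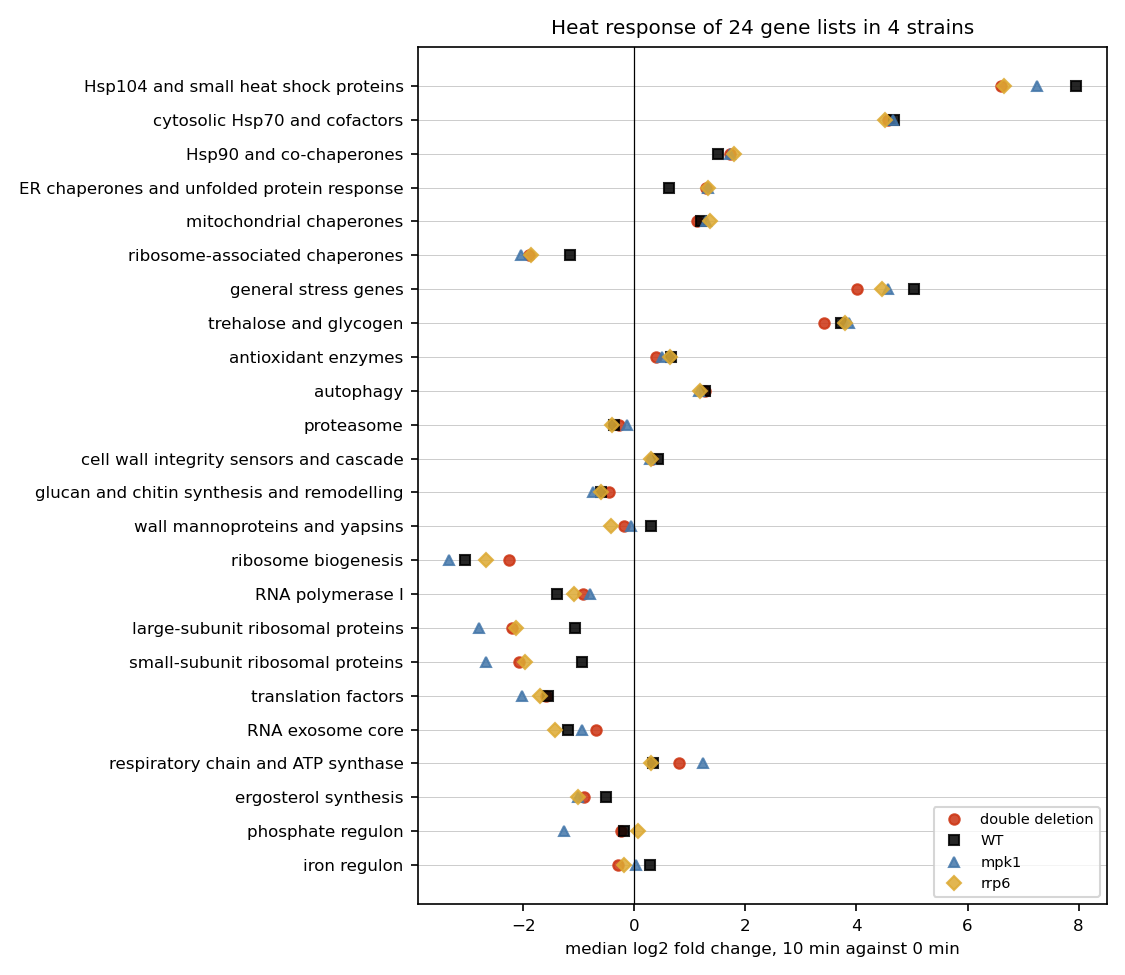
Median log2 fold change after 10 min of heat for 24 gene lists in the double deletion, WT, mpk1 and rrp6, 1 marker per strain, with no error bar because members of a list are not replicates. The double deletion and rrp6 markers lie close for ribosomal proteins, where WT fell least, and the phosphate list is lowest in mpk1.

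Part of the ribosome biogenesis genes fell less in the double deletion than in WT or mpk1. Of the 70 genes, 25 had a higher response than in WT and 25 than in mpk1, with 0 lower in either, against 9.14% and 4.30% of all genes called higher. The medians were -2.25 in the double deletion, -3.05 in WT, -3.33 in mpk1 and -2.67 in rrp6, and 3 genes differed from rrp6 (6 without heated replicate C of the double deletion, 1 without heated replicate C of rrp6). Leaving out 1 library gave 10 to 41 against WT, with the lowest count without heated replicate C of WT and the highest without heated replicate B of WT. Against mpk1 the range was 9 to 38, with 9 without heated replicate B of either strain, 15 without unheated replicate C of mpk1 and 38 without heated replicate C of the double deletion. With total counts the 2 counts were 11 and 12. NOG2, a GTPase of large-subunit export whose gene has an intron, went from 235, 200.0 and 183 CPM to 116, 140.0 and 94.1 CPM. Its log2 fold change was -0.82 ± 0.30, against -3.36 in WT, -4.29 in mpk1 and -0.81 in rrp6. The difference was 2.53 ± 0.44 from WT (adjusted p = 1.30e-04) and 3.47 ± 0.46 from mpk1 (adjusted p = 1.01e-05). The fall of NOG2 in the double deletion was not called without its unheated replicate A (adjusted p = 0.0518) or heated replicate C (adjusted p = 0.0791), whereas the difference from mpk1 kept its call without any 1 of the 12 libraries. After heat NOG2 stood at 117 ± 23.0 CPM and 178 ± 9.13 CPM (SD, n = 3) in the strains without RRP6, and at 23.5 ± 16.1 CPM in WT and 8.82 ± 1.48 CPM in mpk1.

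Part of the ribosomal protein genes fell further than in WT. The median was -2.19 for the large subunit, against -1.06 in WT, -2.80 in mpk1 and -2.14 in rrp6, and 30 of 81 genes were lower than in WT and 1 higher, where 11% of all genes were called lower. For the small subunit 20 of 56 were lower and 0 higher. These counts rest on single libraries. Without heated replicate C of the double deletion they were 9 and 9, without its heated replicate B 60 and 41, and without its unheated replicate C 19 and 13. Without heated replicate B of WT they were 8 and 10, and without unheated replicate A or B of WT 12 and 13. RPL10 had log2 fold changes of -2.25 ± 0.36 in the double deletion and -0.88 in WT, a difference of -1.38 ± 0.49 (adjusted p = 0.0447). Of 67 mitochondrial ribosomal protein genes 8 rose (5 without heated replicate B or unheated replicate C) and 38 fell. Their response was lower than in rrp6 for 26 genes and higher for 0, against 1.98% and 2.19% of all genes. The count of 26 was 6 with total counts and 14 without heated replicate C of the double deletion. It was 15 to 17 without any 1 of the unheated double deletion libraries, 12 and 11 without replicate B of unheated or heated rrp6, and 10 without replicate C of unheated rrp6. With total counts 2 of the 67 rose and 56 fell.

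Most genes of the exosome core had a higher response than in WT, and 5 a higher one than in rrp6. Of the 10 genes 8 had a higher response than in WT, 5 than in rrp6 and 1 than in mpk1, with 0 lower in any. Of all genes 9.14%, 2.19% and 4.30% were called higher, in the same order of strains. Medians were -0.68 in the double deletion, -1.20 in WT, -1.43 in rrp6 and -0.94 in mpk1. RRP4, a cap subunit, went from 90.9, 83.2 and 86.8 CPM to 39.3, 44.6 and 40.0 CPM, and its response was 1.15 ± 0.13 above that of WT (adjusted p = 1.87e-07), 0.75 ± 0.12 above rrp6 (4.21e-04) and 0.51 ± 0.12 above mpk1 (0.00884). Against WT the count was 7 to 8 without any 1 of the 12 libraries and 6 with total counts. Against rrp6 it moved more: it was 3 without any 1 unheated library of the double deletion or without replicate B or C of unheated rrp6, 2 without replicate C of heated rrp6, 3 with total counts and 9 with DESeq2.

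Part of the phosphate, arginine and iron genes responded otherwise than in mpk1 or WT. Of 24 phosphate genes 12 had a higher response than in mpk1 and 0 a lower one, against 4.30% and 3.24% of all genes. With 1 library left out the count of 12 was 11 to 15. PHO5, the secreted acid phosphatase, had 6.01, 5.49 and 7.88 CPM at 0 min and 24.6, 20.4 and 20.1 CPM at 10 min, while in mpk1 it went from 196 ± 55.1 CPM to 52.3 ± 13.2 CPM, and the difference was 3.64 ± 0.29 (adjusted p = 5.40e-10). PHO84, the high-affinity phosphate transporter, stood at 789 ± 305 CPM in unheated mpk1 and 7.08 ± 6.01 CPM in the unheated double deletion, so the difference of 4.33 ± 0.92 (adjusted p = 0.00329) comes with unlike starting levels. In arginine metabolism 7 of 16 genes were lower than in WT and 7 lower than in mpk1, with 0 higher in either. Of all genes 11% were called lower than in WT and 3.24% lower than in mpk1. With 1 library left out the arginine counts were 7 to 8 against WT and 5 to 7 against mpk1. ARG4, argininosuccinate lyase, had log2 fold changes of -1.39 ± 0.12 here, 0.03 in WT, 0.87 in mpk1 and -1.23 in rrp6. Its difference was -1.42 ± 0.17 from WT and -2.26 ± 0.17 from mpk1 (adjusted p = 1.27e-06 and 3.80e-10). Among 21 iron genes 10 were lower than in WT and 1 higher, against 11% and 9.14% of all genes. With 1 library left out the count of 10 was 7 to 11. FET3 had a log2 fold change of -1.85 here and -0.96 in WT, a difference of -0.89 ± 0.19 (adjusted p = 0.00154).

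**Figure D5:**
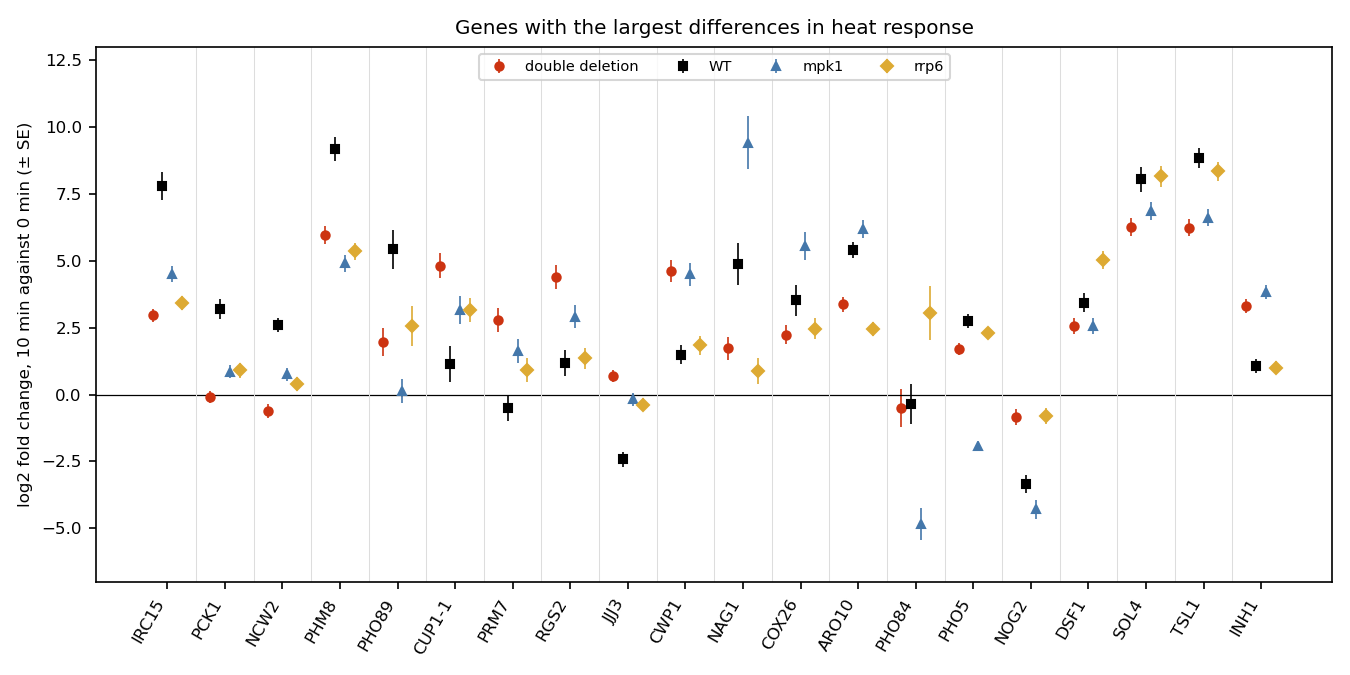
Log2 fold change after 10 min of heat (± SE of the fit, 3 libraries a group) in the double deletion, WT, mpk1 and rrp6 for the genes with the largest called differences in response. NCW2 lies below 0 in the double deletion and above 0 in the other 3 strains, PCK1 lies near 0 in the double deletion, PHO84 and PHO5 are lowest in mpk1, and CWP1, RGS2 and INH1 are higher in the 2 strains without MPK1 than in the 2 with it.

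Against WT, the 5 genes with the most lowered response were IRC15, PHO89, PCK1, PHM8 and NCW2, and the 5 most raised were CUP1-1, PRM7, RGS2, CWP1 and JJJ3. NCW2, a protein of the cell wall, had 43.1, 50.8 and 55.7 CPM at 0 min and 36.4, 30.6 and 30.5 CPM at 10 min, while in WT it went from 58.9 ± 10.7 CPM to 355 ± 73.2 CPM (SD, n = 3). The difference was -3.21 ± 0.37 on the log2 scale (adjusted p = 4.00e-07), -1.38 ± 0.36 from mpk1 and -1.01 ± 0.36 from rrp6, the last with an adjusted p of 0.115. Its own fall, -0.62 ± 0.26 (adjusted p = 0.0334), was not called when replicate B or C of either time was left out (adjusted p = 0.0620 to 0.111). PCK1, of gluconeogenesis, stood at 10.7 ± 1.57 CPM and 9.74 ± 3.88 CPM here and rose in WT from 1.37 ± 1.18 CPM to 11.1 ± 2.17 CPM. IRC15, a microtubule-associated protein, and PHM8 rose in both strains but began from a higher mean in the double deletion. Unheated IRC15 stood at 7.08 ± 1.24 CPM here and 0.107 ± 0.186 CPM in WT, and heated at 56.2 ± 10.2 CPM and 38.4 ± 13.5 CPM, so the fold in WT starts from almost no counts. PHM8 went from 23.2 ± 9.51 CPM to 1473 ± 364 CPM here and from 1.34 ± 0.449 CPM to 785 ± 58.3 CPM in WT. JJJ3, a J-domain protein, rose here with 31.2, 29.7 and 23.8 CPM at 0 min and 43.3, 50.6 and 42.7 CPM at 10 min and went from 26.9 ± 6.14 CPM to 5.36 ± 3.38 CPM in WT, a difference of 3.10 ± 0.36 (adjusted p = 4.91e-07). The rise of JJJ3 here was not called with total counts. CUP1-1, a metallothionein, has an identical neighbour copy, so its counts are only the reads the counting let through.

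CWP1, a mannoprotein of the wall, differed from WT by 3.14 ± 0.52 and from rrp6 by 2.79 ± 0.50 (adjusted p = 6.67e-05 and 0.00113), and the difference from mpk1 was 0.14 ± 0.54 (adjusted p = 0.915). It stood at 12.2 ± 4.47 CPM and 7.35 ± 2.01 CPM in the unheated strains without MPK1, and at 59.8 ± 11.2 CPM and 158 ± 23.1 CPM in WT and rrp6. INH1, an inhibitor of the mitochondrial ATPase, likewise had a response that differed from WT by 2.25 ± 0.37 and from rrp6 by 2.30 ± 0.34 (adjusted p = 7.31e-05 and 1.31e-04), and from mpk1 by -0.53 ± 0.37 (adjusted p = 0.402). TSL1 began higher in both strains without MPK1, at 78.5 ± 17.6 CPM and 56.3 ± 14.4 CPM against 13.9 ± 0.255 CPM in WT and 21.9 ± 2.03 CPM in rrp6, and its response was -2.61 ± 0.39 from WT and -2.11 ± 0.38 from rrp6 (adjusted p = 2.29e-05 and 0.00112). In the general stress list 8 of 26 genes had a lower response than in WT and 0 a higher one. The shares of all genes called were 11% lower and 9.14% higher. With 1 library left out the count of 8 was 6 to 9.

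For ARO10, a decarboxylase of amino acid breakdown, the response differed from those of mpk1 and WT, and its difference from rrp6 did not pass the threshold. It rose by 3.37 ± 0.28 here, 2.46 in rrp6, 6.20 in mpk1 and 5.40 in WT, with a difference of -2.83 ± 0.38 from mpk1 (adjusted p = 1.19e-05), -2.03 ± 0.37 from WT (2.69e-04) and 0.91 ± 0.36 from rrp6 (0.172). Its unheated level was 52.8 ± 4.02 CPM here and 11.3 ± 3.67 CPM in mpk1. NAG1 had the largest difference from mpk1, -7.69 ± 1.38, but it is listed at 0 in all 3 unheated mpk1 libraries, so that value is set by the model's prior count, and it lies inside a gene of the opposite strand. The other genes with the largest differences from mpk1 or rrp6 were COX26 (-3.32 ± 0.71 from mpk1), DSF1 (-2.47 ± 0.50 from rrp6) and SOL4 (-1.90 ± 0.47 from rrp6), of which COX26 and DSF1 had means of 14.0 ± 4.30 CPM and 9.34 ± 3.76 CPM at 10 min. The difference of SOL4 was not called without replicate C of unheated rrp6, heated rrp6 or the unheated double deletion (adjusted p = 0.0841, 0.0609 and 0.0831).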

How the data were processed

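Total RNA from yeast was sequenced in 36 libraries (4 strains, 3 heat times, 3 replicates A to C). Per the submitters' processing notes the authors used HISAT2 2.1.0, HTSeq and build R64, and deposited 1 raw count per open reading frame and library, with 5 summary lines that were left out of totals and tests. The HTSeq version and strand setting are not given in the sources used here, so reads from a gene and from a gene on the opposite strand cannot be told apart. Reads outside features came to 5.69 to 11.8 per 100 gene counts in the 6 libraries compared. Groups were taken from the sample titles.

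Counts were tested with edgeR 4.0.16 in R 4.3.3: TMM scaling, filterByExpr (minimum count 10, total 15), and a quasi-likelihood fit of all 36 libraries in 12 groups, with Benjamini-Hochberg adjustment over 6017 genes. The difference between 2 strains' responses is an interaction contrast of that fit, and DESeq2 1.42.0 was an alternative. Counts were also simulated for 5697 genes, with 1 set of means and 1 spread for all groups. In the heated double deletion 200 genes were changed, equally up and down. There the heat comparison recovered 92 of 100 genes changed 2-fold and 94 of 100 changed 4-fold, with 8 false calls. The difference from WT recovered 58 and 88 of 100, with 10. In the data 74.7% of genes were called, so the simulated rates do not carry over to these comparisons. Counting error sets the precision of low genes: 3 counts were worth 0.254 to 0.607 CPM.

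The members and the 46 gene lists were chosen with earlier results of these data known. No list was tested as a set, and counts of members that rose or fell stand against 37.3% of all genes called in each direction. Named were the 10 largest rises and falls among called, annotated, non-overlapping genes that averaged at least 5 CPM, the 3 most changed called members of each list, its most abundant member and its 2 most abundant uncalled members, and the 5 (WT) or 3 (mpk1, rrp6) largest differences each way. Of 6600 identifiers 5917 matched RefSeq R64. Promoter sequences were read from that genome. Figures were drawn with matplotlib.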

Additional observations from a re-analysis of the deposited data

Results flagged for a closer look

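The response to heat differed from that of WT for 1213 genes, from that of mpk1 for 454 and from that of rrp6 for 251, each by the interaction test of the edgeR fit. Of the genes named, the response was lower than in WT by log2 differences of -4.83 for IRC15, -3.46 for PHO89, -3.28 for PCK1, -3.21 for PHM8 and -3.21 for NCW2. It was higher than in WT by 3.68 for CUP1-1, 3.31 for PRM7, 3.20 for RGS2, 3.14 for CWP1 and 3.10 for JJJ3. Against mpk1 NAG1 is listed at 0 in the 3 unheated mpk1 libraries, so its fitted difference of -7.69 rests on the prior count. The other differences from mpk1 were -3.32 for COX26, -2.83 for ARO10, 4.33 for PHO84, 3.64 for PHO5 and 3.47 for NOG2. Against rrp6 they were -2.47 for DSF1, -2.11 for TSL1, -1.90 for SOL4, 3.03 for RGS2, 2.79 for CWP1 and 2.30 for INH1. These genes were picked for the size of the difference, so the sizes are a description. Each test used 3 libraries in each of 4 groups.

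Reads that fell in no counted feature, which enter no comparison, were above their unheated level. In the double deletion they came to 10.8 ± 1.53 per 100 gene counts at 10 min and 6.48 ± 0.689 at 0 min (SD, n = 3). WT had 2.62 ± 0.159 unheated and 5.40 ± 0.797 at 10 min, mpk1 2.83 ± 0.122 and 6.15 ± 1.04, and rrp6 7.65 ± 0.594 and 12.1 ± 0.991. The 3 heated libraries of the double deletion did not overlap the 3 unheated ones, and which transcripts these reads come from was not tested.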

How the results depend on the processing

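The count of genes higher after heat was 1420 with total counts as the scaling, against 2246 with TMM, and the other alternatives left both counts of the heat comparison within 1.5 times. Leaving out 1 library gave 2128 to 2258 higher and 2101 to 2176 lower, and 920 to 1296, 264 to 841 and 125 to 272 differences from WT, mpk1 and rrp6. The count against rrp6 (251) was 111 with total counts and 399 with DESeq2. Total counts turned the sign of 5 list medians: antioxidant enzymes (-0.12), cell wall integrity sensors and cascade (-0.18), glycolysis and fermentation (-0.037), sulfur assimilation (-0.18) and the ubiquitin list (-0.37). The phosphate median was -0.32 to 0.019 with 1 library left out, above 0 without unheated replicate A. Among the genes named, sign changes were met only by genes not called in the fit as reported. With total counts ADH1 was at -0.35, ENO2 -0.22, ERG28 -0.29, RAP1 -0.31, RPN2 -0.39, RRP45 -0.44 and SBA1 -0.42. PKC1 was at 0.024 with DESeq2 size factors, 0.022 with DESeq2, 0.0066 with the stricter filter and 0.018 with only the libraries compared. BTT1 was at 0.054, 0.056, 0.040 and 0.049 in the same order, 0.013 with no filter and 0.015 with annotated genes only. Leaving out 1 library put BTT1 at -0.17 to 0.089, ADH1 at -0.18 to 0.32, HTA1 at -0.10 to 0.017, PCK1 at -0.40 to 0.12, PHO84 at -0.91 to 0.50, RRN3 at -0.33 to 0.061 and RRP45 at -0.041 to 0.16. RHO1 and JJJ3 were no longer called with total counts (adjusted p = 0.230 and 0.490). NCW2 was not called with DESeq2 size factors or DESeq2 (0.0596 and 0.0550). Total counts instead called 18 genes lower that were not called in the fit as reported, with the sign unchanged. Among them were XDJ1, CPR7, FPR2, PKC1, UTP20, ATP1 and NDT80. ERG28, RAP1, RPN2, RRP45 and SBA1 were also called lower, with a changed sign. DESeq2 called RAP1 and ERG28 higher. Without heated replicate B, CRH1, RRN3 and RPL41A were called lower, and without unheated replicate A, TSA1 and NAB3. Of 142 genes with a value in the text 111 kept direction and call under every alternative. So did 16 of 17 differences of response, taken from the largest ones. Their alternatives, like the motif TTCNNGAA, were added after the data were seen. The differences of PHO89, CUP1-1, PRM7 and RGS2 are not among the 17. Nor are differences given for genes not ranked among the largest, such as RPL10, FET3, ARG4 and RRP4. Replicates A, B and C of the 2 times had correlations of their deviations of 0.295, 0.0335 and 0.119. Between unlike letters the values were -0.211 to 0.0357, the highest for unheated B with heated C. The letters are not said to pair libraries, so the fit as reported has no block. Whether libraries of the same letter share a batch was not tested. A replicate block gave 2293 higher and 2286 lower, with 1454, 613 and 376 differences, and additionally called TSA1 and NAB3. The cause of these shifts was not tested. Depth limits the genes near 0 counts before heat, whose fold changes rest on the prior count.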

Other observations

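Open reading frames whose identifier is not in the RefSeq annotation were described as a group of their own, with no gene names or roles. Of 683 in the files 302 could be tested in the double deletion, where 142 rose and 29 fell (19 without heated replicate C). With total counts 107 rose and 50 fell. Their median log2 fold change was 0.85, against 1.94 in WT, 1.74 in mpk1 and 0.75 in rrp6. The interaction test called 32 lower and 5 higher than in WT, 24 lower and 2 higher than in mpk1, and 0 lower and 3 higher than in rrp6. Of all genes 11% were called lower and 9.14% higher than in WT. The shares were 3.24% and 4.30% against mpk1, and 1.98% and 2.19% against rrp6. The 32 called lower than in WT are thus near the share of all genes, and the 5 called higher are below it. The 24 called lower than in mpk1 are above the share of all genes, and were 18 to 31 with 1 library left out. How far these open reading frames share reads with genes on the opposite strand was not tested, and the strand used in counting is not given in the sources used here.

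Position and structure of the genes went with their change in the double deletion. Within 20 kb of a chromosome end, 39.1% of 174 genes rose and 19.0% fell, with a median of 0.29, against 36.7% and 39.4% of the 5541 genes farther in, with a median of -0.06. Near the ends the median was 0.92 in WT, 0.55 in mpk1 and 0.32 in rrp6. All 89 ribosomal protein genes with an intron fell, and so did 46 of the 48 without one. Among other genes, 30.6% of 173 with an intron rose and 46.2% fell, against 37.9% and 37.1% of 5405 without one. These splits were chosen after the data were seen, were not tested, and mix genes of unlike function.

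Alignments to more than 1 place, as HTSeq counted them, were set against the sum of all gene and summary counts, unaligned and low-quality ones included. Whether 1 read entered several times was not tested. Such alignments made up 10.0% ± 0.962 in the unheated and 15.0% ± 2.35 in the heated libraries of the double deletion (SD, n = 3). In WT they made up 5.18% ± 0.434 and 5.0% ± 0.186, in mpk1 4.98% ± 0.687 and 4.57% ± 0.802, and in rrp6 11.7% ± 1.52 and 20.1% ± 1.58.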
